A study of Mus musculus with 144 samples.

Results

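Liver RNA of mice lacking both REV-ERB nuclear receptors was compared with control liver RNA at zeitgeber time 16 (ZT16, 16 h after lights on) under ad libitum feeding, across every gene expressed in the liver. The members were chosen by the deposited table's column names, as the 3 columns named CRE at ZT16 against the 3 named GFP at ZT16, which makes 6 of the 144 libraries of the series. Male C57BL/6J mice with free access to normal chow gave all 6 whole-liver samples, and the labels used here give no age. The control group (control 1, 2 and 3) has the genotype label WT, and the knockout group (knockout 1, 2 and 3) is labelled as a REV-ERB a/b double knockout, which the series' design text places in adult hepatocytes. The rest of the ad libitum series held the same genotypes at the 7 other times, ZT1, 4, 7, 10, 13, 19 and 22, as 42 libraries. Another 6 libraries were taken at ZT16 under reverse-phase feeding, with food given in the rest phase. Both sets were used here to test what differed. The 42 libraries also entered the filter, scaling and estimate of the spread behind the ZT16 test. The column names are read here as a green fluorescent protein control and the Cre recombinase. The agent delivered thus differs together with the genotype, and these effects cannot be told apart. No label names a vector, a promoter or the deleted exons. Nor is it stated that replicates are separate animals, so p-values here reflect the spread among libraries, which may be technical.

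REV-ERBα and REV-ERBβ, the products of Nr1d1 and Nr1d2, are heme-binding nuclear receptors that repress transcription by recruiting the NCoR and HDAC3 corepressor complex. They bind the same DNA elements as the activating ROR receptors, and through these they hold down Arntl (BMAL1), Npas2 and other clock genes at the time of day when REV-ERB is abundant. In the liver they are also known as regulators of lipid and bile acid metabolism, and mice on a standard light cycle are active and feed around ZT16.

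The 6 libraries held 6333090 to 10367400 counts over 24421 gene symbols, after 1 transcript was kept per symbol. No 2 replicates held the same values, and the closest pair differed by a chi-square per degree of freedom of 7.77, well above sampling noise. The most unlike pair was knockout 2 and knockout 3, at 28.7. Control 2 and knockout 3 had the steepest length trends of their groups. Their log2 expression relative to the other 2 libraries of the group fell by 0.156 and 0.126 per doubling of transcript length. In control 3 and knockout 2 it rose, by 0.123 and 0.0947. Calls on the genes described below that were lost without control 2 or knockout 3 are given beside those genes. Against the label of liver, hepatocyte markers such as Alb and Apoa1 were abundant in all 6 libraries. They summed to 178626, 166496 and 171061 CPM (counts scaled by library size and TMM factor to a common total) in control 1, 2 and 3 and to 156959, 162772 and 142533 in knockout 1, 2 and 3. The knockout sums were thus below every control sum, although none of the 13 markers tested was called and 8 of them had a log2 fold change above 0. Without knockout 3 Cps1 was called higher (0.57, edgeR adjusted p = 0.0349).

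The receptor genes themselves came first. In mm9, Nr1d1 (transcript NM_145434) lies on chromosome 11 from 98629246 to 98636691. It had 5.37, 10.3 and 2.58 normalised CPM in control 1, 2 and 3 and 39.2, 30.6 and 48.9 in knockout 1, 2 and 3. Nr1d2 (NM_011584, chromosome 14, 19036570 to 19071620) had 31.6, 25.7 and 30.3 in control and 58.1, 59.3 and 56.7 in knockout libraries. Both transcripts were thus higher, with no overlap, in the libraries labelled knockout. The log2 fold change (knockout minus control throughout) was 2.71 ± 0.33 (SE) for Nr1d1 and 0.99 ± 0.21 for Nr1d2, with adjusted p of 7.15e-07 and 0.00221 by edgeR's quasi-likelihood test. The counts run over the whole transcript, including any exons that were not deleted, so they check neither the deletion nor the labels. "Knockout" below is the group labelled so.

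Of 12536 genes tested, 206 were called higher in the knockout (1.64% of those tested) and 214 lower (1.71%), at an edgeR adjusted p under 0.05. Of these, 148 (1.18%) and 135 (1.08%) also changed at least 1.5-fold. The 3 knockout libraries lay wholly above the 3 controls for 967 genes (7.71%) and wholly below for 980 (7.82%), and 407 of the 420 called genes were among them. The median log2 fold change of all genes tested was -0.0032. The spread was estimated over all 48 ad libitum libraries, and fits to the 6 ZT16 libraries alone called 97 higher and 84 lower. Without control 2 the counts were 186 and 123, and without knockout 1 they were 148 and 131.

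**Figure D1:**
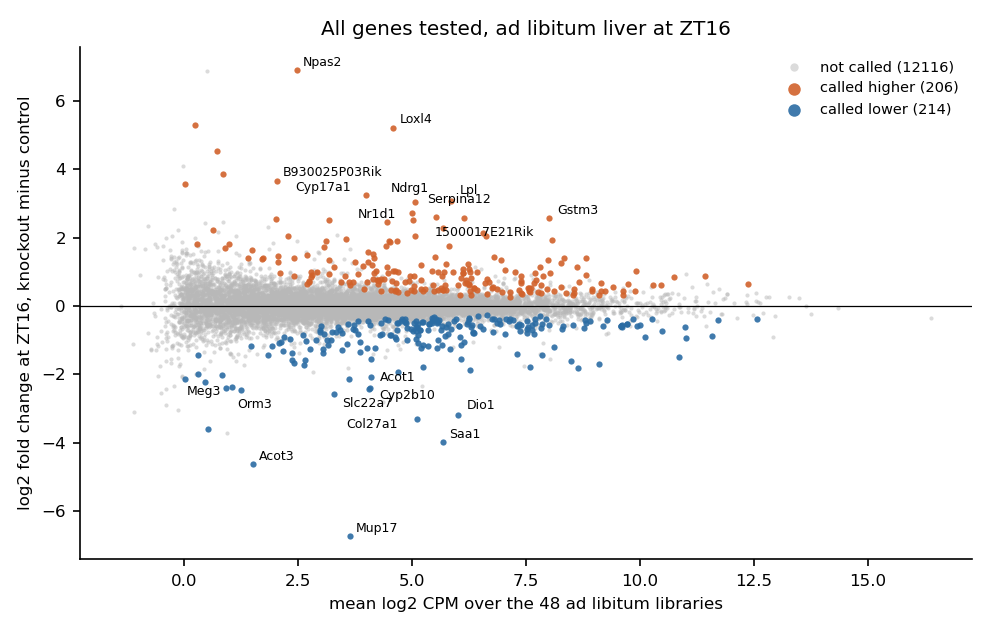
Each point is 1 of the 12536 genes tested, with its mean log2 CPM over the 48 ad libitum libraries on the x axis and its log2 fold change at ZT16 (knockout minus control) on the y axis. The 206 genes called higher are orange, the 214 called lower are blue, and the 10 largest called rises and falls among genes whose mean log2 CPM was 1 or more are named.

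Clock genes rose more often than they fell: 7 of the 19 tested were called higher and 1 lower, where 3.35% of all genes tested were called in either direction. Of the 7, Nr1d1 and Nr1d2 are the targeted genes themselves, given above. The median log2 fold change of the 19 was 0.26. Npas2 (NM_008719, mm9 chromosome 1, 39251117 to 39420085), a partner of BMAL1 that can stand in for CLOCK, had 0.298, 0.171 and 0 normalised CPM in control 1, 2 and 3, and 18.5, 20.6 and 24.5 in knockout 1, 2 and 3. It was nearly silent in every control library and present in every knockout library. The controls held 3 Npas2 counts in all against 550 in the knockout, a ratio of 131 (95% interval 44.5 to 636, exact binomial, counting error only). The fitted log2 fold change, 6.90, depends on a prior count with controls this low, and edgeR's quasi-likelihood adjusted p was 7.21e-14.

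Arntl (NM_007489, chromosome 7, 120350979 to 120457640) encodes BMAL1, the central activator. It had 21.8, 14.4 and 21.9 CPM in control and 37.1, 39.9 and 40.9 in knockout libraries, so every knockout library was above every control. The log2 fold change was 1.02 ± 0.14 (edgeR adjusted p = 4.46e-06). Clock itself, whose groups overlapped, had a log2 fold change of 0.26 ± 0.18 (edgeR adjusted p = 0.562).

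Of the repressors, Cry1 was called higher, with 29.8, 26.0 and 37.1 CPM in control and 50.4, 52.6 and 51.3 in knockout libraries (log2 fold change 0.73 ± 0.18, edgeR adjusted p = 0.00809). Without control 2 its call was lost (0.64, adjusted p = 0.0745) and 6 clock genes were called higher. Per1 and Per2, which encode the partners of the cryptochromes, were not called, with log2 fold changes of -0.27 ± 0.56 and -0.49 ± 0.21. The output regulators Nfil3 and Dbp, which bind the same D-box elements with opposite effect, both rose. Nfil3, the repressor, had 27.7, 51 and 35.8 CPM in control and 63.4, 61.0 and 83.7 in knockout libraries (log2 fold change 0.86 ± 0.16, edgeR adjusted p = 0.000524). Dbp, the activator, had 6.86, 16.1 and 7.09 against 28.2, 25.5 and 48.4 (1.76 ± 0.38, adjusted p = 0.00364). Neither gene's groups overlapped, although control 2 was the highest control for both. Dbp's relatives Tef and Hlf were not called.

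Rora, which encodes the activating receptor RORα, had overlapping groups and a log2 fold change of 0.09 ± 0.20. None of the 6 genes of the NCoR and HDAC3 complex was called, and their median was 0.07.

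**Figure D2:**
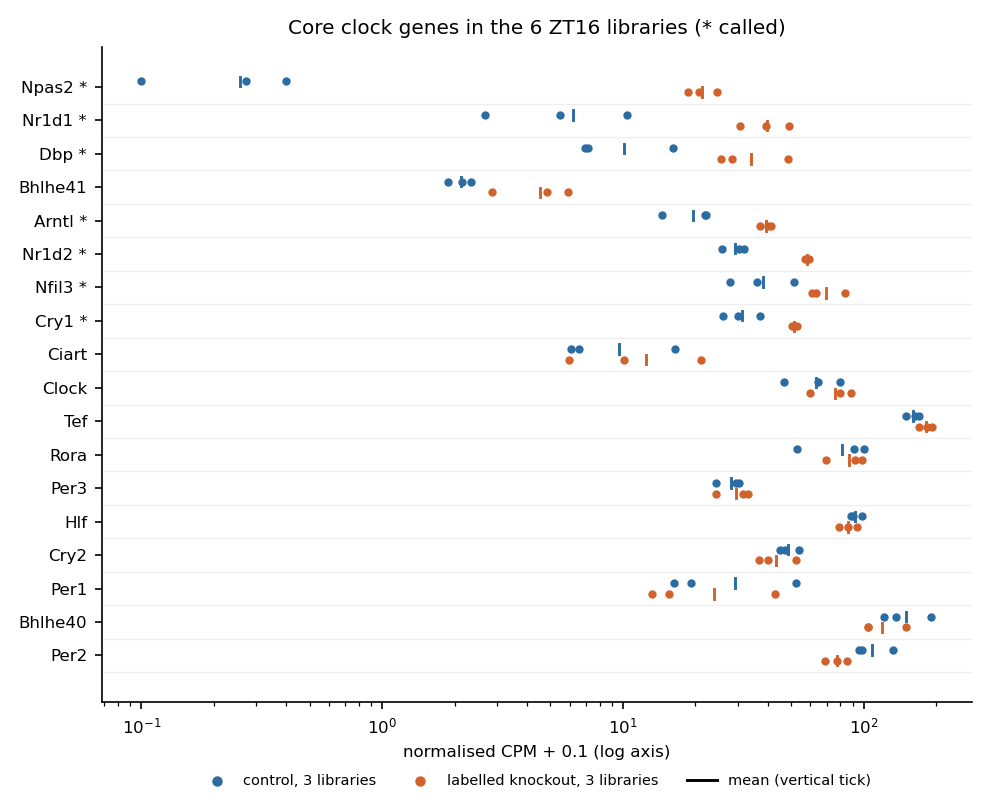
Normalised CPM plus 0.1 (log axis) of 18 core clock genes in the 3 control (blue) and 3 knockout (orange) libraries, with a tick at each mean and an asterisk on called genes. Npas2 is separated most, the other called rises have groups that do not overlap, and genes such as Per1, Clock and Rora overlap.

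Promoters of 3 clock genes that rose together are shown because Arntl is known as a REV-ERB target through ROR elements near its start. They come from RefSeq (GRCm38.p6), run from 250 bases before to 50 after an annotated start, and are printed 5′ to 3′ along the gene, with a match to the ROR response element in capitals.
Arntl, chr7:113207261-113207560, plus strand: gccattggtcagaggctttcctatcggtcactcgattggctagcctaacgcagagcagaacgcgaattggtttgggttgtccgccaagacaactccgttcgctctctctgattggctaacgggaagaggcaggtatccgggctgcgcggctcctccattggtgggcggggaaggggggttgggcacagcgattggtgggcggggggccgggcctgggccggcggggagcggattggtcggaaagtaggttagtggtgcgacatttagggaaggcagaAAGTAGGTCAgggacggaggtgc
Npas2, chr1:39194022-39194321, plus strand: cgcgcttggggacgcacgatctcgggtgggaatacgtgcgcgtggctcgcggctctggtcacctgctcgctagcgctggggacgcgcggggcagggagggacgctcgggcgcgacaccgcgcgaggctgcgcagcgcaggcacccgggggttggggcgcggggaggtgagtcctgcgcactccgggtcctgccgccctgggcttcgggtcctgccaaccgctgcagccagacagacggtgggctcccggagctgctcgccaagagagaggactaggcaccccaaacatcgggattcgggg
Nfil3, chr13:52980990-52981289, minus strand: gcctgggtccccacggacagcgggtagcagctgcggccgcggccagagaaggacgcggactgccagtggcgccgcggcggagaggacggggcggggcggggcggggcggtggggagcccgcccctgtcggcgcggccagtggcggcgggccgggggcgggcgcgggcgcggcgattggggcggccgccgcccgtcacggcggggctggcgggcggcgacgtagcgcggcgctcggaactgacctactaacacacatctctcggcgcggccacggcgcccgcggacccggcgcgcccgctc
The ROR response element, an AGGTCA or GGGTCA half-site behind an AT-rich lead, was searched on both strands. Arntl held 1 match, 27 to 36 bases past the start base. The window of another annotated Arntl start, chr7:113207215-113207514, ends before these letters and held none. These 300 bases of Npas2 and Nfil3 held none, which says only that these patterns are not in these windows. The Nfil3 window does hold AGGTCA on the other strand (printed as tgacct), behind a lead outside these patterns. Of all tested genes with a promoter, 62 of 9967 (0.622%) held a match. Among genes called with at least a 1.5-fold change, Tjp3 and Arsg, called higher, also held one, in 1 of 2 windows each. So did Chchd10, called lower, in its 1 window. These 3 genes are named after their matches were seen, and called genes with smaller changes were not listed. All 3 lost their call without control 2 (edgeR adjusted p = 0.0576, 0.0562 and 0.373), and Tjp3 also without knockout 3 (0.0635). A promoter was found for only 111 of the 148 genes higher by at least 1.5-fold and 103 of the 135 lower, under 80% of each set, so no comparison of shares between the sets is made.

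Among genes whose mean log2 CPM was 1 or more over the 48 libraries, the largest called rise after Npas2 was in Loxl4 (NM_001164311, chromosome 19, 42666769 to 42687296), a lysyl oxidase that crosslinks collagen. It had 3.28, 1.03 and 4.19 CPM in control and 116, 99.2 and 107 in knockout libraries, a 37.2-fold difference with no overlap (log2 fold change 5.22 ± 0.32, edgeR adjusted p = 7.21e-14). Lpl, the lipase that frees fatty acids from circulating triglyceride and is normally low in adult liver, had 11.0, 11.3 and 19.7 CPM in control and 129, 127 and 98.5 in knockout libraries (3.08 ± 0.34). Cyp17a1, the steroid 17-hydroxylase, had 11.9, 5.14 and 8.70 against 51, 114 and 81.3 (3.24 ± 0.50). All of these groups were separate.

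The other large rises were of 6.26, 5.14 and 8.38 CPM in control to 55.2, 45.4 and 63.2 in knockout libraries for Ndrg1, a stress and differentiation gene, and of 20.3, 15.6 and 16.8 to 85.7, 94.4 and 138 for Serpina12, which encodes vaspin. Gstm3, a glutathione transferase, had 79.9, 100 and 81.9 CPM in control and 403, 429 and 734 in knockout libraries. The noncoding RNAs B930025P03Rik and 1500017E21Rik rose 12.7-fold and 6.01-fold. For these 5 genes edgeR's adjusted p ran from 8.34e-08 (Ndrg1) to 0.000364 (Gstm3), and none of the 10 largest rises at that minimum level lost its call when any 1 of the 6 libraries was left out. Below it, 3930402G23Rik, D630024D03Rik and 1700010I14Rik had 0 to 0.343 CPM in control and 1.56 to 5.03 in knockout libraries and were also called higher. The exons that Gstm3 shares in sequence with its close relatives make its own share of reads uncertain.

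Among the largest falls, Col27a1 (NM_025685, chromosome 4, 62876446 to 62996024), which encodes a fibrillar collagen, had 141, 160 and 109 CPM in control and 9.35, 13.6 and 18.4 in knockout libraries (log2 fold change -3.32 ± 0.28, edgeR adjusted p = 4.39e-10). Dio1, the deiodinase that turns thyroxine into active thyroid hormone, had 196, 264 and 198 against 18.3, 15.6 and 39.4 (-3.19 ± 0.54, adjusted p = 0.000169). Slc22a7, a transporter of organic anions, had 28.3, 26.7 and 14.2 against 2, 2.66 and 7.41 (-2.58 ± 0.55, adjusted p = 0.00329). The groups of all 3 genes were apart, although knockout 3 was the highest knockout library for each.

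The largest fitted fall among called genes, of Mup17, rested on 1 library. This major urinary protein gene, from a family of near-identical copies whose reads cannot be assigned with certainty, had 25.8, 372 and 11.3 CPM in control and 1.78, 0.592 and 1.54 in knockout libraries. Control 2 was far above the other controls. Its log2 fold change was -6.73 ± 1.74 (edgeR adjusted p = 0.0218), and without control 2 it was -3.85 (adjusted p = 0.375). The call was also lost without any 1 of the knockout libraries. Meg3, an imprinted noncoding RNA, had 3.73, 8.56 and 4.51 against 0.779, 0.395 and 2.24 (-2.38 ± 0.55, adjusted p = 0.00664), a call lost without control 2, knockout 1 or knockout 2 (adjusted p = 0.0921, 0.0587 and 0.0792).

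**Figure D3:**
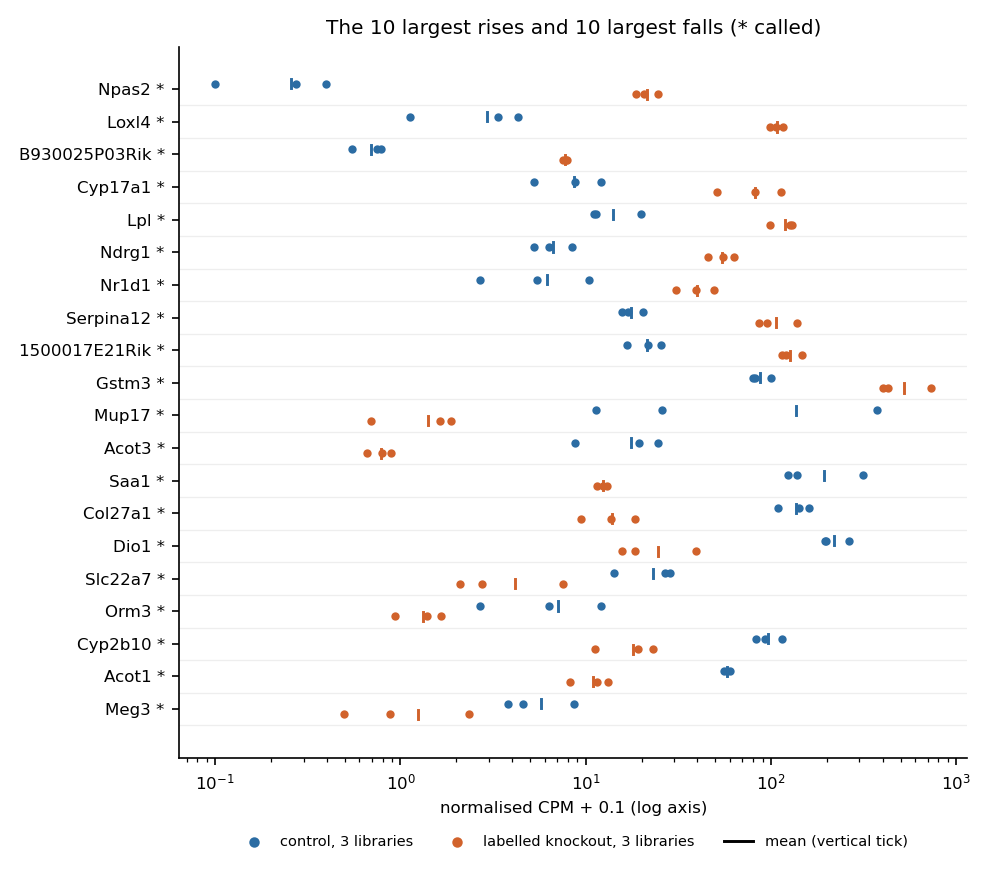
Normalised CPM plus 0.1 (log axis) in the 3 control (blue) and 3 knockout (orange) libraries for the 10 largest called rises and the 10 largest called falls among genes whose mean log2 CPM was 1 or more, with a tick at each mean. The groups are separate for all 20 genes, and 1 control library of Mup17 (372 CPM) lies far from the other 2.

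Fatty acid oxidation genes, which burn lipid in mitochondria and peroxisomes, were lower where they were called. Of 26 tested, 5 were called lower and 0 higher, with a median log2 fold change of -0.27. The shares over all genes tested were 1.71% lower and 1.64% higher. Called or not, 16 of the 26 lay wholly below the controls and 0 wholly above, against 7.82% and 7.71% of all genes tested. Acaa1b, a peroxisomal thiolase, had 521, 825 and 499 CPM in control and 192, 204 and 211 in knockout libraries (-1.60 ± 0.23, edgeR adjusted p = 1.62e-05). Cpt1a, the gate for fatty acids into mitochondria, had 287, 423 and 297 against 203, 273 and 188 (-0.60 ± 0.17, adjusted p = 0.0304). Control 2 was the highest control library for both genes. Acadl and Hsd17b4 were also called, with falls of 0.41 each on the log2 scale. Without control 2 the calls on Cpt1a and Acadl were lost (adjusted p = 0.33 and 0.346) and the count fell to 2 of 26. Without knockout 1 or knockout 3 it was 3, and Cpt1a (adjusted p = 0.158 and 0.145) and Acadl (0.103 and 0.0753) were again lost. Acadl was also lost without knockout 2 (0.0746).

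The acyl-CoA thioesterases, which release fatty acids from coenzyme A, included 4 called lower of 10 tested and none higher, with a median of -0.35. Among all genes tested, 1.71% were called lower and 1.64% higher. The called members Acot1, Acot2, Acot3 and Acot4 are close copies of each other on chromosome 12, so their reads may be shared. Acot1 had 59.9, 57.5 and 55.4 CPM in control and 13, 11.4 and 8.11 in knockout libraries (-2.39 ± 0.34, edgeR adjusted p = 1.14e-05). Acot3 had 24.4, 19.2 and 8.70 against 0.557, 0.790 and 0.699, a 24.9-fold fall (adjusted p = 0.00144). Acot4 had 39.5, 31.5 and 30.8 against 12.9, 13.7 and 7.27 (-1.57 ± 0.35, adjusted p = 0.00533). Acot1, Acot3 and Acot4 kept their calls whichever of the 6 libraries was left out, and the list's count was then 4 or 5.

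Uptake and storage genes moved both ways, with 2 of 23 called higher and 2 lower, beside 1.64% and 1.71% of all genes tested. Lpl led the rises. Mgll, which splits monoglycerides, had 405, 357 and 313 CPM in control and 217, 230 and 214 in knockout libraries (-0.70 ± 0.13, edgeR adjusted p = 0.000342). Pparg, a driver of lipid storage, had 9.24, 12.3 and 9.99 against 4.90, 6.12 and 2.93 (-1.14 ± 0.31, adjusted p = 0.0262), and its call was lost without control 2, control 3, knockout 1 or knockout 3 (adjusted p from 0.0504 to 0.14). Synthesis genes showed few calls. Fads2, a fatty acid desaturase, was the 1 of 21 lipogenesis genes called lower, with 171, 152 and 215 CPM against 107, 159 and 87.8. These groups overlapped, and the call was lost without control 1, control 3, knockout 1 or knockout 3 (adjusted p from 0.0758 to 0.237). Without knockout 2 the count was 4, with Acacb, Fads1 and Lpin2 added (-1.78, -0.59 and -1.22). Insig2, which retains the sterol-sensing complex in the endoplasmic reticulum, was the 1 of 25 cholesterol genes called higher (0.88 ± 0.19, adjusted p = 0.00356), and was lost without control 2 (0.71, adjusted p = 0.0571).

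Abcb11, the bile salt export pump, was the 1 gene called, higher, of 19 for bile acid synthesis and transport. It had 386, 291 and 373 CPM in control and 554, 595 and 512 in knockout libraries (0.66 ± 0.12, edgeR adjusted p = 0.000197). Chka, the first kinase of phosphatidylcholine synthesis, had 71.6, 60.6 and 55.6 against 97.1, 124 and 156 and was the 1 of 12 called in its list (1.0 ± 0.18, adjusted p = 0.000229). Both genes had separate groups.

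Acute-phase genes, which the liver secretes in inflammation, were lower in the calls with 1 exception: 5 of 20 tested fell and 1 rose, with a median of -0.41. Over all genes tested, 1.71% were called lower and 1.64% higher. Called or not, 9 of the 20 lay wholly below the controls and 6 wholly above, so the list moved both ways. Those shares were 7.82% and 7.71% over all genes tested. Saa4, a constitutive serum amyloid A, had 1242, 1299 and 1070 CPM in control and 350, 281 and 386 in knockout libraries (-1.83 ± 0.28, edgeR adjusted p = 3.56e-05). Saa1, the inducible form, had 314, 139 and 123 against 12.4, 11.4 and 12.9 (-3.98 ± 1.04, adjusted p = 0.0242). Control 1 was well above the other controls for Saa1, and the call was lost without it (-3.42, adjusted p = 0.0919) and without any 1 knockout library (adjusted p from 0.0718 to 0.109). Saa1 and Saa2 are near-identical, so their reads may be shared.

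Orm3, an orosomucoid, had 6.26, 12 and 2.58 CPM in control and 1.56, 1.28 and 0.838 in knockout libraries (-2.45 ± 0.63, edgeR adjusted p = 0.0185). Its call was lost without control 2 (-1.81, adjusted p = 0.207) and without any 1 knockout library (adjusted p from 0.055 to 0.0715). Haptoglobin (Hp) and Saa3 also fell, by 0.88 and 1.05 on the log2 scale. Both lost their call without control 2 (adjusted p = 0.113 and 0.0706), control 3 or knockout 2, and Hp also without control 1 or knockout 1. Cp, encoding the copper-carrying ceruloplasmin, was the member that rose, from 1296, 1277 and 1134 CPM to 2429, 2437 and 1823 (0.85 ± 0.10, adjusted p = 1.03e-07). The number of acute-phase genes called lower was 1 to 4 when 1 library was left out, and 2 without control 2.

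Drug-metabolising enzymes moved both ways, with 4 of 39 tested called higher and 5 lower and a median of -0.26. Among all genes tested, 1.64% were called higher and 1.71% lower. Gstm3 and Gstm2, of the mu class of glutathione transferases, and Cyp2c55 led the rises. Cyp2c55, a P450 induced by xenobiotics, had 7.45, 4.80 and 8.06 CPM in control and 29.9, 24.3 and 58.6 in knockout libraries (2.45 ± 0.44, edgeR adjusted p = 0.000385). Cyp2b10, the P450 most used as a readout of the receptor CAR, had 114, 92.5 and 83.1 against 23, 19.1 and 11.2 (-2.43 ± 0.57, adjusted p = 0.00961), a call lost without knockout 3 (adjusted p = 0.059). The alpha-class transferases Gsta1 and Gsta4 fell 12.2-fold and 3.44-fold, and Gsta1 was lost without control 2 (adjusted p = 0.0806). Without control 2 the counts were 4 higher and 3 lower, and without knockout 3 they were 3 and 4. The receptors themselves, Nr1i3 (CAR) and Nr1i2 (PXR), were not called, with log2 fold changes of -0.39 and -0.11.

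Of 31 sex-biased and major urinary protein genes tested, 2 were called higher and Mup17 lower, with a median of -0.41. The shares over all genes tested were 1.64% higher and 1.71% lower. Besides Cyp17a1 the rise was in Elovl3, a very-long-chain fatty acid elongase, which had 97.9, 165 and 184 CPM in control and 368, 564 and 780 in knockout libraries (1.94 ± 0.44, edgeR adjusted p = 0.00611). It was lost without control 1 (adjusted p = 0.0581). None of 18 growth hormone axis genes was called.

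Of 23 amino acid genes tested, 2 were called higher and 0 lower, with a median of 0.27. For this and the next lists, the shares over all genes tested were 1.64% higher and 1.71% lower. Cbs, which condenses homocysteine with serine, had 255, 226 and 217 CPM in control and 613, 524 and 701 in knockout libraries (1.4 ± 0.12, edgeR adjusted p = 8.25e-11). Hal, which starts histidine breakdown, had 308, 212 and 214 against 445, 367 and 376 (0.69 ± 0.14, adjusted p = 0.00116). Irs2 and Pcx were the 2 of 20 gluconeogenic and fasting genes called higher. Irs2, an insulin signalling adaptor, had 2.24, 1.88 and 3.71 against 10.8, 10.1 and 8.66 (1.91 ± 0.47, adjusted p = 0.0129), and was lost without control 1, control 2 or knockout 1 (adjusted p from 0.0507 to 0.0832). Pcx, pyruvate carboxylase, rose 1.36-fold and was lost without control 3 or knockout 2. Gckr, the glucokinase regulator, rose 1.45-fold as the 1 of 24 glucose genes called, and was lost without control 3, knockout 2 or knockout 3.

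Where a list held 1 call the gene and not the list is described, since 3.35% of all genes tested were called. Some lists gained a call in a fit without 1 library: Hsd3b7 (bile acids) and Uros (heme) were called higher without control 2, and without knockout 2 Nmnat3 (NAD) and Irf9 (interferon) were called higher and Lpcat3 (phosphatidylcholine) lower. Nampt, the rate-limiting enzyme of NAD salvage, had 135, 134 and 144 CPM in control and 68.9, 74.1 and 43.0 in knockout libraries, and was the 1 of 16 NAD genes called (-1.15 ± 0.16, edgeR adjusted p = 2.27e-06). Clpx, the unfoldase of a mitochondrial protease, had 165, 133 and 172 against 328, 326 and 268, the 1 of 14 called in its list (0.97 ± 0.12, adjusted p = 2.67e-07). Hspb1, a small heat shock protein, had 17.3, 38.9 and 14.2 against 12.7, 6.81 and 10.1, the 1 of 19 called, and was lost without control 2 (-0.67, adjusted p = 0.229) or knockout 2. In heme synthesis, the neighbouring steps Ppox and Cpox moved in opposite directions, by 0.77 ± 0.18 (higher) and -0.53 ± 0.12 (lower). Ppox was lost without knockout 3, and Cpox without control 3 or knockout 3.

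In the cell cycle list 2 of 19 were called higher and 2 lower, beside 1.64% and 1.71% of all genes tested. Cdkn1a, the p21 inhibitor of cyclin-dependent kinases, had 34.4, 32.5 and 36.1 CPM in control and 156, 200 and 72.7 in knockout libraries (2.06 ± 0.43, edgeR adjusted p = 0.00275), with knockout 3 the lowest of its group and still above every control. Mad2l2, a subunit of a translesion polymerase, had 10.3, 12.5 and 12.6 against 20.5, 18.2 and 22.4 (0.78 ± 0.13). Ccne2, cyclin E2, had 4.17, 3.60 and 5.16 against 1.56, 1.97 and 2.24, and was lost without control 1, control 3, knockout 1 or knockout 2. Wee1, a kinase that holds back entry into mitosis, fell by 0.76 on the log2 scale and was lost without control 1, control 3, knockout 1 or knockout 3 (adjusted p from 0.107 to 0.189). The list then had 0 or 1 called lower. Neither the 24 endoplasmic reticulum stress genes nor the 17 immediate early genes tested included a call, though Hsp90b1 was called higher without knockout 2 and Gadd45a lower without control 3 or knockout 1. Oasl1 was the 1 of 24 interferon genes called higher, and was lost without control 2, control 3, knockout 1 or knockout 3 (adjusted p from 0.123 to 0.246). Loxl4 and Col27a1, in opposite directions, were the only 2 of 19 matrix genes called.

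**Figure D4:**
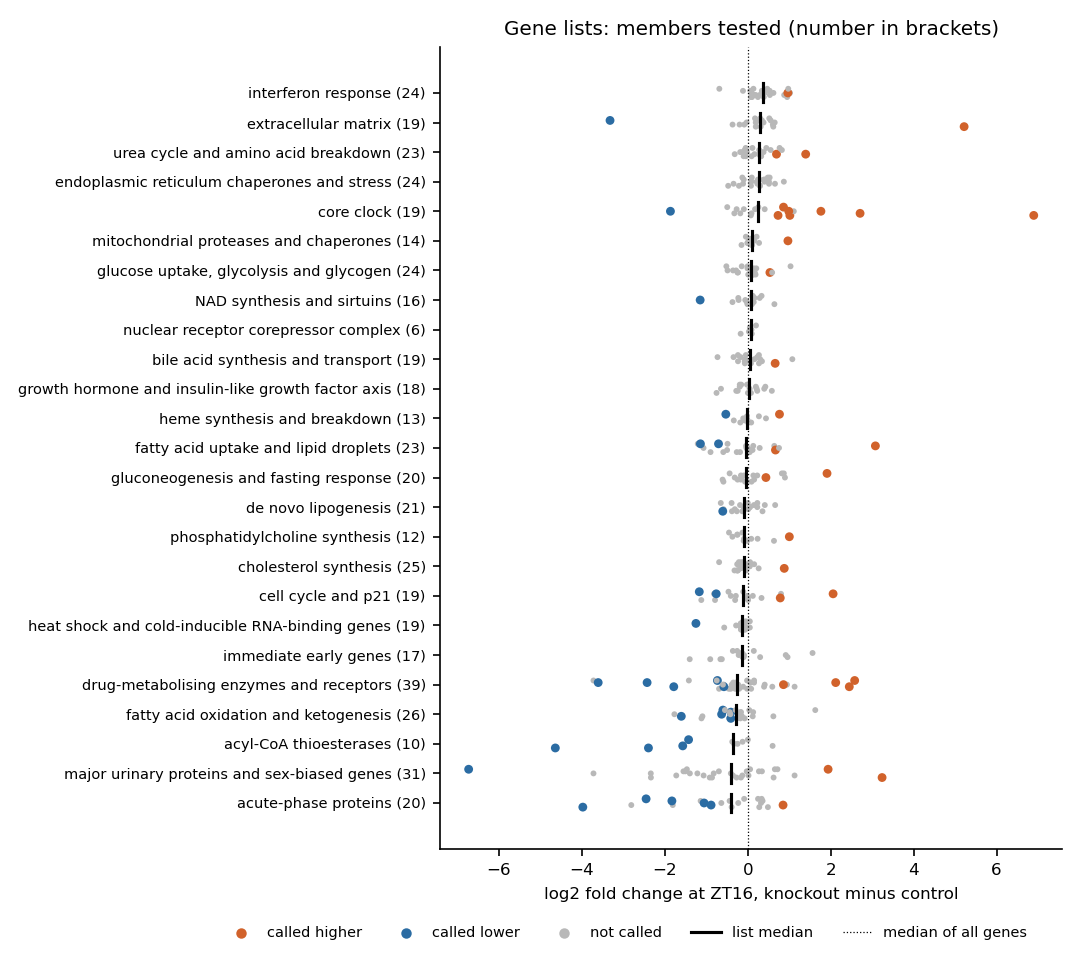
Log2 fold change at ZT16 (knockout minus control, x axis) of each tested member of 25 gene lists, with members called higher in orange, called lower in blue and others in grey. The black bar is the list's median, from -0.41 (acute-phase) to 0.36 (interferon), and the dotted line is the median of all genes tested.

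In bulk tissue fewer cells of a type and less RNA per cell cannot be told apart, so markers of liver cells are given beside these counts. The hepatocyte sums, given above, were lower in every knockout library than in every control. Alb made up most of them, with 118789, 99061 and 113142 CPM in control and 88403, 97701 and 70466 in knockout libraries. Summed markers of endothelial cells were 240 to 388 CPM in control and 352 to 511 in knockout libraries, with 19 of 20 log2 fold changes above 0. Stellate markers were 216 to 383 and 289 to 521 CPM, with 10 of 11 above 0. Kupffer cell markers were 371 to 556 and 360 to 475 CPM, with 0 of 15 above 0. Ranges overlapped for these last 3 cell types, control 2 had the lowest endothelial and stellate sums, and no marker of them was called with all 6 libraries. Pecam1, an endothelial marker, was called higher without control 3 (0.91, edgeR adjusted p = 0.0161) or knockout 3 (0.79, adjusted p = 0.0334). Neutrophil and monocyte markers summed to at most 8.66 CPM, with Chil3 at 0 in all 6 libraries. Lymphocyte markers summed to 2.91 to 4.47 CPM in control and 1.12 to 2.17 in knockout libraries. Of these, 0 of the 3 tested had a log2 fold change above 0, and none was called. Erythroid markers summed to 180 to 272 CPM in control and 207 to 223.5 in knockout libraries, and none was called. Among cholangiocyte markers Sox9 was called higher (6.86, 4.11 and 4.35 CPM against 14.9, 9.57 and 14.7, 1.33 ± 0.28, edgeR adjusted p = 0.00181), 1 of 6 tested. The part of cell composition in the gene differences was not tested.

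The genes called at ZT16 were followed at the other 7 times, in libraries that entered the ZT16 test only through the shared filter, scaling and estimate of the spread. The 206 called higher had the same sign in 158 (76.7%) at ZT1 and in up to 198 (96.1%) at ZT13, and 131 had it at all 7 times. The 214 called lower had it in 179 (83.6%) at ZT1 and in up to 209 (97.7%) at ZT10, with 145 at all 7 times. Of the 206, 50 at ZT1 and 155 at ZT13 were themselves called higher, and of the 214, 43 and 138 were called lower. Over all genes tested the share called in either direction was 2.66% at ZT1, 1.6% at ZT4, 5.32% at ZT7, 7.18% at ZT10, 9.87% at ZT13, 2.66% at ZT19 and 2% at ZT22.

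The size of the difference in a gene moved with the time of day. Loxl4 had a log2 fold change of 1.39 at ZT1, 6.54 at ZT7, 5.22 at ZT16 and 2.75 at ZT22, as its control level moved from 36.5 to 1.59, 2.83 and 20.1 mean CPM and its knockout level from 95.9 to 146, 107 and 138. Npas2 likewise went from 0.16 at ZT1 to 6.90 at ZT16 and 2.01 at ZT19, with mean knockout levels of 19.1, 21.2 and 22.9 CPM and control levels of 17.0, 0.156 and 5.94. For both genes the control level moved by a larger fold than the knockout level between these times.

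The test of the ZT16 difference against the mean difference of the other 7 times gave 1 gene, Arntl, lower (0.00798% of genes tested), and 0 higher. The count at an unadjusted p under 0.05 was 757, and DESeq2 called 6 higher and 4 lower. The Arntl difference was 1.02 at ZT16 and 1.95 on average over the other times, a gap of -0.93 ± 0.16 (edgeR quasi-likelihood adjusted p = 0.00846). Its control mean was 1.45 CPM at ZT10, 7.05 at ZT13, 19.4 at ZT16 and 37.6 at ZT19, while its knockout mean was 39.6, 35.4, 39.3 and 50.6. The call was lost without control 1 (-0.84, adjusted p = 0.163), control 3 (-0.84, adjusted p = 0.241) or knockout 1 (-0.89, adjusted p = 0.11).

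The ZT16 difference was also compared with the one under reverse-phase feeding, in a fit over all 96 liver libraries and 13539 genes. Of the genes called ad libitum, 189 of 206 and 185 of 214 had the same sign in the 6 reverse-phase libraries, and 71 and 61 were called there in the same direction. In those libraries 1.93% of all genes tested were called higher and 1.72% lower, 3.65% in all. The interaction called 10 genes whose difference was more positive ad libitum (0.0739% of those tested) and 6 more negative (0.0443%), and 929 genes had an unadjusted p under 0.05. DESeq2 called 19 and 14, a fit to the 12 ZT16 libraries alone 1 and 3, and leaving out 1 of the 12 gave 4 to 17 and 3 to 13. The 2 tables were deposited separately, and only an offset common to both genotypes cancels in this test. They also differed in depth, at 4568860 to 10367400 counts per ad libitum library and 13113500 to 26186000 per reverse-phase library. The effect of depth on these counts of calls was not tested.

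Npas2 had the smallest p. Its difference was 6.97 ad libitum and 1.90 ± 0.24 under reverse-phase feeding, a gap of 5.07 ± 0.62 on the log2 scale (edgeR adjusted p = 9.44e-08). Among metabolic genes Cbs had 1.41 against 0.33 ± 0.14 (gap 1.07 ± 0.20, adjusted p = 0.00268), and Gys2, the liver glycogen synthase, had -0.51 against 0.80 ± 0.16 (gap -1.31 ± 0.23, adjusted p = 0.00107). Gys2 was thus lower ad libitum, though short of the call (adjusted p = 0.0613), and called higher under reverse-phase feeding.

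The Cyp2a genes went the other way from Cbs. Cyp2a5 had a difference of 0.95 ad libitum and 3.01 ± 0.32 under reverse-phase feeding (gap -2.06 ± 0.42, edgeR adjusted p = 0.0119), lost without control 2 of either schedule (adjusted p = 0.0675 ad libitum and 0.0555 reverse-phase). Cyp2a4, nearly identical in sequence to Cyp2a5, had 1.14 and 6.41 ± 0.85 (gap -5.27 ± 1.03, adjusted p = 0.00543), lost without reverse-phase knockout 2 (adjusted p = 0.0674). Fgb, the fibrinogen beta chain, had 0.37 and -0.75 ± 0.15 (gap 1.12 ± 0.21, adjusted p = 0.00334), and Fga and Fgg, its partner chains, were also among the 10. Fgb was lost without reverse-phase control 2 (adjusted p = 0.051). Stra6l, a retinol transporter homologue, Stx4a, a syntaxin, and Enpp2, autotaxin, had gaps of 0.77 ± 0.15, 0.75 ± 0.16 and -0.82 ± 0.19. Stx4a was lost in 3 of the 12 leave-outs and Enpp2 in 8.

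**Figure D5:**
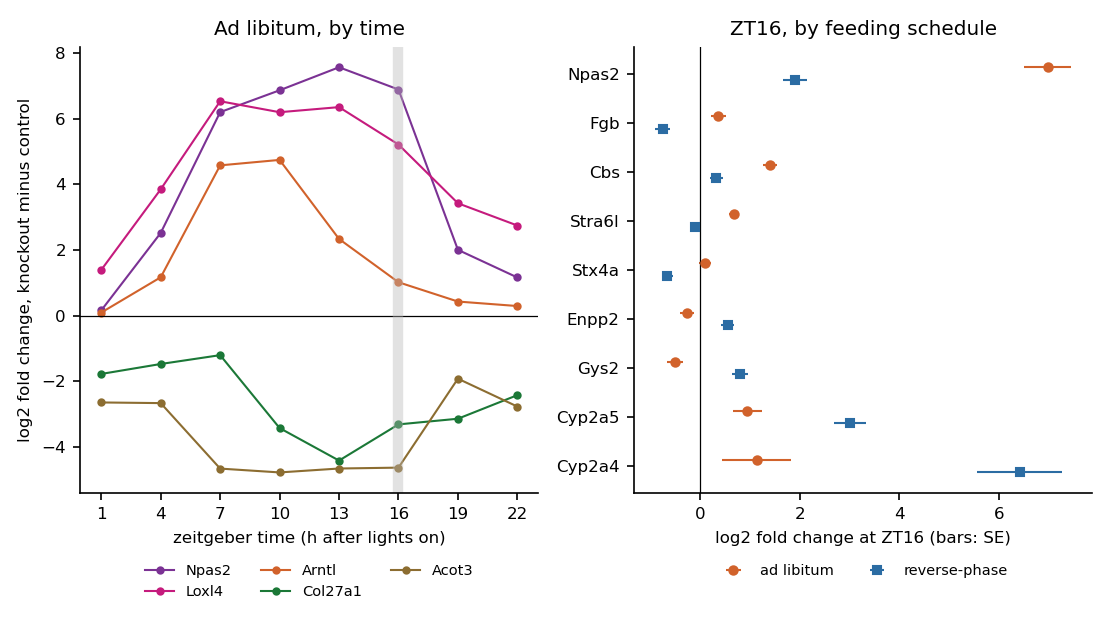
Left, log2 fold change (knockout minus control) of 5 genes at the 8 ad libitum times, with ZT16 shaded. Right, the ZT16 log2 fold change with its SE (bars) ad libitum (circles) and under reverse-phase feeding (squares) for 9 genes named from the interaction test, where Npas2 is 6.97 against 1.90. The ad libitum Npas2 value depends on a prior count, since its controls were nearly silent.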

How the data were processed

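Per the labels' protocols, Trizol and a spin column were used for liver RNA and a TruSeq kit for the libraries. STAR, HOMER and mm9 are named, without versions, in the submitters' processing notes. Strand handling is not given in the sources used here, so a gene and an antisense partner cannot be told apart. The authors deposited expected counts per transcript, all multiples of 0.5 (29.5% not whole ad libitum, 31.9% reverse-phase), which were rounded to whole numbers. Of 34600 transcripts, the one with the largest mean share was kept per symbol. edgeR 4.0.16 (R 4.3.3) was run with TMM scaling, filterByExpr, a group-means model over 48 libraries (16 groups, 32 residual degrees of freedom) or, between feeding schedules, 96 libraries, and Benjamini-Hochberg adjustment over all genes tested. CPM are normalised by TMM, and the SE is the absolute log2 fold change divided by the square root of F, an approximation. DESeq2 1.42.0 was an alternative, and the code was tested on simulated data. The authors' endothelial and Kupffer cell tables were not used here.

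The comparison, the gene lists and the markers were chosen with earlier results of these data known. Named genes were Nr1d1, Nr1d2, the 10 largest called rises and falls, up to 3 called members per list with the largest change, and 5 genes each way per interaction test by p, with a minimum mean log2 CPM of 1 except for Nr1d1 and Nr1d2. Other named genes complete a described list or were chosen after their values were seen. Replicate numbers did not pair the samples. Some results are not reported here.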

Additional observations from a re-analysis of the deposited data

Results flagged for a closer look

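Arntl was the 1 gene whose ZT16 difference (knockout minus control) departed from the mean difference of the 7 other times by edgeR's quasi-likelihood test, with a log2 gap of -0.93 ± 0.16 (adjusted p = 0.00846).

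Of the reported genes chosen by the naming rule, 10 had a ZT16 difference that departed from the one under reverse-phase feeding by edgeR's interaction test. The difference was more positive ad libitum for Npas2 (log2 gap 5.07), Fgb (1.12), Cbs (1.07), Mad2l2 (1.06), Stra6l (0.77) and Stx4a (0.75). With Npas2 nearly silent in the ad libitum controls, the size of its gap depends on a prior count. The difference was more negative ad libitum for Cyp2a4 (-5.27), Cyp2a5 (-2.06), Gys2 (-1.31) and Enpp2 (-0.82). Fga, Fgg and Amt, named outside that rule, also had a more positive difference ad libitum. Their log2 gaps were 1.06, 0.96 and 0.80 (edgeR adjusted p = 0.0121, 0.0266 and 0.0382). Mad2l2 had a difference of 0.79 ad libitum and -0.26 ± 0.15 under reverse-phase feeding (adjusted p = 0.0164). The cause of these gaps was not tested.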

How the results depend on the processing

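No named gene changed direction under any alternative run, and all 420 genes called at ZT16 kept their sign in every fit over 48 libraries (415 of the 415 tested with the 6 libraries alone). DESeq2 size factors, 2 other filters on low counts, the DESeq2 test, the longest transcript and a replicate block over 48 libraries kept the ZT16 counts within 1.5 times. At least 1.5-fold left 135 lower. The 6 ZT16 libraries alone gave 97 higher and 84 lower, and 50 and 38 with the replicate block, a pairing by number that the data did not bear out (own-number correlations 0.113, -0.243 and -0.318). Leaving out 1 library gave 148 to 200 higher and 123 to 201 lower, and 256 of the 420 calls remained without control 2. Of the 50 named genes called, 32 kept their call in all 6 leave-outs. Against the other 7 times, DESeq2 called 6 higher and 4 lower, and leaving out 1 library gave 0 to 2 lower. Between feeding schedules, DESeq2 called 19 and 14, the 12 ZT16 libraries alone 1 and 3, and leaving out 1 library gave 4 to 17 and 3 to 13. The cause of these shifts was not tested. With 3 libraries a group and 6333090 to 10367400 counts each, genes without a call may still differ.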

Other observations

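Several gene families, some of whose members (Gstm2, Gstm3, Gsta1, Gsta4 and Cbs) are also in the lists above, were called in 1 direction. They were picked after their values were seen, so the counts are descriptions. Over all genes tested, 1.64% were called higher and 1.71% lower. Of 7 tested mu-class glutathione transferases 6 were called higher, with Gstm2 at 37.0, 49.3 and 41.6 normalised CPM in control 1, 2 and 3 and 150, 189 and 217 in knockout 1, 2 and 3. Of 4 alpha-class members Gsta1 and Gsta4 were called lower. Gsta4 had 70.4, 83.2 and 59.3 CPM against 27.7, 13.2 and 21.1. Of 21 genes of glycine and one-carbon metabolism 8 were called higher and 0 lower by edgeR's quasi-likelihood test. Among them Agxt, which transfers the amino group of alanine to glyoxylate, had 144, 184 and 132 CPM in control and 415, 329 and 480 in knockout libraries (log2 fold change 1.41 ± 0.14). Gldc and Amt, subunits of the glycine cleavage system, rose by 0.76 ± 0.12 and 0.75 ± 0.12, and Gnmt, which uses up methyl groups on glycine, by 0.62 ± 0.15, a call lost without control 3 (adjusted p = 0.0698). Under reverse-phase feeding the Amt difference was -0.04. The murinoglobulins Mug1 and Mug2 rose by 0.64 and 1.02, and all 8 UDP-glucuronosyltransferase 1 transcripts fell by 0.53 to 0.62, although these share exons and so may be 1 signal. Without control 2 all of them but Ugt1a9 lost their call (edgeR adjusted p from 0.0513 to 0.101).

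Nuclear receptor genes were among the clear single changes. Ppard, a fatty acid sensor, had 11.9, 11.6 and 11.9 CPM in control and 58.3, 71.8 and 73.8 in knockout libraries (log2 fold change 2.52 ± 0.25, edgeR adjusted p = 5.29e-09). Esr1, the oestrogen receptor alpha, had 52.2, 34.3 and 37.2 against 7.90, 15.6 and 5.17 (-2.07 ± 0.38, adjusted p = 0.00045). Thra, a thyroid hormone receptor whose end overlaps Nr1d1 on the opposite strand, had 5.81, 7.36 and 7.09 against 13.9, 11.3 and 16.2 (1.03 ± 0.20, adjusted p = 0.00107). With strand handling not known, Thra reads cannot be told apart from Nr1d1 reads in the overlap. Rian, from the same imprinted region as Meg3, had 1.79, 4.62 and 3.87 CPM in control and 0.334, 0.197 and 1.82 in knockout libraries, and was called lower with overlapping groups (adjusted p = 0.043), a call lost without control 2, control 3, knockout 1 or knockout 2 (adjusted p from 0.11 to 0.231). Serpina6, the carrier of corticosteroids in blood, had 220, 350 and 231 against 101, 93.4 and 106 (-1.41 ± 0.21).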
